A study of Mus musculus with 24 samples.

Results

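Tdgf1 (Cripto), the cell-surface co-receptor for the ligand Nodal, was followed together with 8 other genes of the Nodal pathway. These were Nodal itself, its antagonists Lefty1 and Lefty2, the intracellular inhibitor Smad7, the receptors Acvr1b and Acvr2b, the transcription factor Foxh1 and the second co-receptor Cfc1. The 9 genes were found by matching the Ensembl identifiers of the count table to these symbols in GENCODE M21, and all 9 are among the 48985 genes of the table. Tdgf1 was selected on its CAST counts, already known to be low in some clones, so its own changes are given as a description, with no test. The question was whether the lower CAST Tdgf1 went with changed levels of Nodal targets.

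The cells were female mouse embryonic stem cells of the F1 hybrid line F121/9, which carries 1 129S1 and 1 CAST copy of each autosome, so that reads over strain differences can be assigned to a parental allele. All cultures, controls included, were kept without serum in the 2i+LIF condition, that is, with the MEK inhibitor PD0325901, the GSK-3β inhibitor CHIR99021 and leukemia inhibitory factor on gelatin. Poly(A) RNA was sequenced in 24 libraries from 12 groups of 2 replicates. The groups were the parental line (genotype labelled control) and the recombined clones of 5 recombinations: d3 (clones 12 and 21), d6 (clone 16), i7 (clones 7 and 12), i10 (only clone 18) and i12 (only clone 10). The labels do not say what the letters d and i stand for. Each recombined group is a single clone, so the recombination and any other property of that clone cannot be told apart. Replicates are described as biological duplicates and nothing further is said of their origin, so p-values measure the spread between these libraries.

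Nodal is a secreted ligand of the TGF-β family. It binds a complex of type II and type I activin receptors, a step that needs an EGF-CFC co-receptor such as Tdgf1 or Cfc1. The activated receptors phosphorylate Smad2 and Smad3, which join Smad4 and, with DNA-binding partners such as Foxh1, switch on Nodal itself and its feedback inhibitors Lefty1, Lefty2 and Smad7. In mouse embryonic stem cells the pathway is active at a low level, and Lefty1 and Lefty2 are widely used as its readout.

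The libraries held 3286819 to 15581094 allele-assigned counts, with 10383315 to 15581094 in the d3 libraries and 3286819 to 5189267 in the i10 libraries. Levels are given as CPM, the counts of a gene scaled by the effective library size of both alleles together (the summed counts of the tested genes times the TMM factor), and levels of different genes are compared only per kilobase of exon. The summed level of 10 naive pluripotency genes, among them Pou5f1, Nanog and Esrrb, was 6485 to 8491 CPM in parental lines, 7438 to 8306 in d clones and 6900 to 8663 in i clones. The sum of 6 primed epiblast genes was 30.9 to 255 CPM in parental lines, 125 to 254 in d clones and 49.2 to 163 in i clones, and Fgf5 among them had under 3 counts in each library. Primitive endoderm genes summed to at most 12.5 CPM, trophoblast genes to at most 9.34, the 2-cell-like genes in the table to at most 18.5 and fibroblast genes to at most 3.86. In bulk RNA, fewer cells of a type and less RNA per cell cannot be told apart.

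Because the level of Tdgf1 rests on reads that its processed pseudogene Tdgf1-ps1 can also give, the coding sequences of both were compared first. Tdgf1 (ENSMUSG00000032494.12) lies on the minus strand at chr9:110939603-110946158 of GRCm38, and Tdgf1-ps1 (ENSMUSG00000095834.2) at chr16:3730510-3731022. Over 513 aligned coding bases the pair is 98.64% identical, with 7 differences. The last stretch of the alignment, coding bases 424 to 513 of Tdgf1, is shown from the GENCODE M21 transcripts on GRCm38, 5′ to 3′, with the bases that differ in capitals.
Tdgf1: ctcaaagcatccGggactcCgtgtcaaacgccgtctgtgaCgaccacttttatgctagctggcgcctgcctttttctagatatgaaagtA
Tdgf1-ps1: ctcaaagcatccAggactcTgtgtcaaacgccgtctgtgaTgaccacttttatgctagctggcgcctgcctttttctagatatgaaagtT
Of the 442 windows of 75 bases, the read length, in the Tdgf1 coding sequence, 161 (36.43%) occur unchanged in Tdgf1-ps1. How the authors placed reads that fit both is not given in the sources used here, so the values of this pair are uncertain to that extent. Another pseudogene, Tdgf1-ps2, is 92.91% identical to Tdgf1 and shares 0 such windows.

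Lefty1 and Lefty2, neighbouring genes on chromosome 1 and the main antagonists of Nodal, form the other near-identical pair. Lefty1 (ENSMUSG00000038793.8) lies at chr1:180935022-180938400 and Lefty2 (ENSMUSG00000066652.5) at chr1:180893108-180899103. Their coding sequences are 92.72% identical over 1099 aligned bases. Of their coding windows of the read length, 173 of 1033 (16.75%) are shared, so part of the counts of each may belong to the other.

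Tdgf1 had by far the highest level of allele-assigned counts per length. Only reads over strain differences are counted, so a ranking of genes also depends on how many such sites each holds. The sites were not counted, so a low level here need not mean low expression. Its mean level over the 24 libraries was 584 CPM per kilobase, against 103 for Lefty2, 26.4 for Nodal, 8.80 for Smad7 and 8.76 for Lefty1. The receptors Acvr2b and Acvr1b had 1.52 and 1.47 CPM per kilobase, and Cfc1 and Foxh1 had 0.208 and 0.0183. Of the EGF-CFC co-receptors, Tdgf1 held nearly all of the counts, 315272 in all against 30 for Cfc1.

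The CAST counts of Tdgf1 were low in all 6 libraries of the d3 and d6 clones and in no other. In d3 cells the CAST level was 450.5 and 466 CPM in the parental replicates, 36.5 and 44.3 in clone 12, and 29.5 and 47.0 in clone 21. In d6 cells it was 328 and 502 CPM in the parental replicates against 28.0 and 54.3 in clone 16. The clones and parental lines do not overlap, and the clones kept 8.81%, 8.35% and 9.91% of the parental CAST level, a log2 change of -3.49, -3.56 and -3.32. In i7 cells the CAST level was 779 and 792 CPM in the parental replicates, 832 and 901 in clone 7, and 629 and 719 in clone 12. In i12 cells it was 350 and 600 CPM in the parental replicates and 336 and 417 in clone 10, and in i10 cells 393 and 867 against 415 and 826 in clone 18. Both i7 clones lay outside their parental replicates, clone 7 above (log2 change 0.14) and clone 12 below (-0.22), and the i12 and i10 clones overlapped with theirs.

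The 129S1 counts of Tdgf1, from the other copy of the gene, overlapped between each d clone and its parental line. The 129S1 level was 699 and 1219 CPM in the d3 parental replicates, 623 and 1096 in clone 12, and 556 and 904 in clone 21. It was 679 and 1419 CPM in the d6 parental replicates and 527 and 1067 in clone 16. The log2 changes of the 129S1 level were -0.16, -0.39 and -0.40, smaller than the difference between replicates of the same line. In pairs of libraries with the same replicate number, the 129S1 level was lower in the clone in 6 of 6. Both d3 clones are paired with the same parental libraries, so these pairs are not separate observations. How many of all genes were lower in 6 of 6 was not counted.

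Tdgf1 is counted mainly from the 129S1 copy even in parental lines. The 129S1 share of its counts was 60.8% to 73.9% in parental libraries, 63.8% to 69.6% in i clones and 94.5% to 96.1% in d clones. In d3 clone 12 the CAST share was 5.53% in replicate 1 (Wilson 95% interval 5.10% to 5.998%) and 3.88% in replicate 2 (3.56% to 4.23%). Such intervals cover counting error only. The total level of Tdgf1 was 1150 and 1685 CPM in the d3 parental replicates, 659 and 1141 in clone 12, and 586 and 951 in clone 21. It was 1008 and 1920 CPM in the d6 parental replicates and 555 and 1122 in clone 16. The totals were 63.5%, 54.2% and 57.2% of the parental mean, and in d6 the clone and parental replicates overlapped. In the fit over all genes the mean log2 change over the d recombinations was -0.79 (SE 0.274), and it was -0.81 (SE 0.0760) with the replicate number as a block. The i clones differed from their parental lines by log2 changes of 0.13 (i7 clone 7), -0.25 (i7 clone 12), -0.26 (i12 clone 10) and 0.03 (i10 clone 18) in total.

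**Figure D1:**
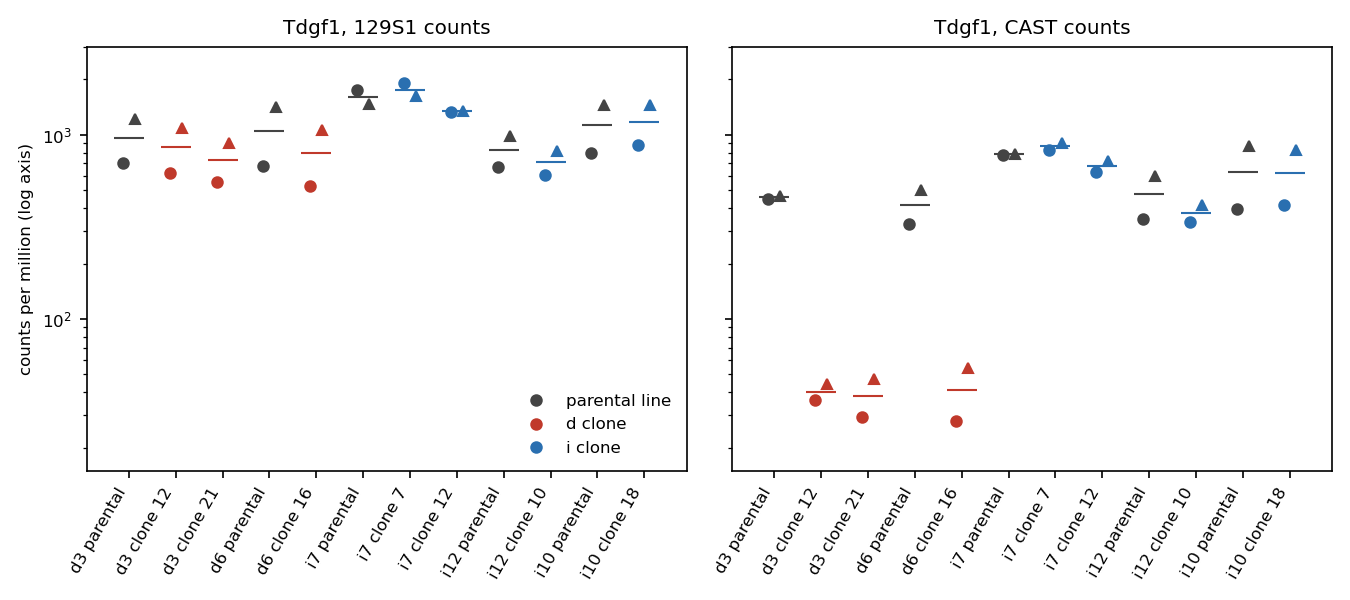
Tdgf1 level in CPM on the 129S1 and the CAST allele, by group (circles, replicate 1; triangles, replicate 2; bars, mean of 2; grey, parental; red, d clones; blue, i clones). The CAST level is 28.0 to 54.3 CPM in the 6 d clone libraries and at least 328 CPM in the others, while the 129S1 levels of d clones and their parental lines overlap.

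The genes whose CAST levels followed Tdgf1 most closely lie beside it on chromosome 9. Over the 12 group means, 8624 genes were ranked by the Pearson correlation of their log2 CAST CPM with that of Tdgf1. Among the most alike were Epm2aip1 (r = 0.992), Lrrc2 (0.983) and Rtp3 (0.970), all between 110951545 and 111279093 on chromosome 9, and Gm6023 on the X (0.929). Nodal (0.014) and Smad7 (0.041) stood near the middle of this ranking, at 3957 and 3804, and Lefty2 (0.660) at 491. For the total level, where 10739 genes were ranked, the most alike were Mrpl24 (0.942), Dap3 (0.938), Glt8d1 (0.934), Pgap2 (0.928) and Yars (0.927), none of them a gene of the pathway. On that scale Nodal had 0.009, Smad7 0.213, Lefty1 0.392, Acvr2b 0.400, Lefty2 0.488 and Acvr1b 0.614. The group means share libraries and scaling, and these correlations are a description of 12 points. The CAST ranking also rests on the CAST counts for which Tdgf1 was chosen.

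Of the neighbours of Tdgf1, Rtp3 and Lrrc2 kept a smaller share of their CAST level in the d clones, and Als2cl, the next gene on the other side, kept a larger one. Als2cl kept 22.5%, 18.0% and 13.6% in d3 clone 12, d3 clone 21 and then d6 clone 16, and its CAST level was also low in the i clones, at 7.35% to 32.7% of the parental one. Rtp3 had 0 CAST counts in each of the 6 libraries, against 45 and 83 in d3 and 41 and 36 in d6 parental replicates. Lrrc2, the next gene to the right of Tdgf1, kept 0.139%, 0.358% and 0.238% of its parental CAST level in clones 12 and 21 of d3 and in clone 16 of d6. The CAST counts of Tdgf1 in the same libraries were 551 and 493, 360 and 552, and 378 and 485.

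The pseudogene Tdgf1-ps1 had few 129S1 counts in parental lines and nearly none in the d clones. The mean 129S1 share of its counts was 7.44% in d3 and 4.44% in d6 parental cells. Its 129S1 counts were 87 and 40 in the d3 parental replicates and 36 and 4 in the d6 parental replicates. They were 0 and 1 in d3 clone 12, 2 and 0 in d3 clone 21, and 0 and 0 in d6 clone 16. In the other 14 libraries they ran from 13 to 186. Its CAST level, 69.7 CPM in d3 parental cells, was 68.9 and 66.3 in the d3 clones, and it was 60.2 in d6 parental cells and 58.3 in clone 16. Thus the 129S1 counts of the pseudogene on chromosome 16 were near 0 in the same 6 libraries in which the CAST counts of Tdgf1 on chromosome 9 were low. Whether reads of the near-identical pair were exchanged between alleles and genes was not tested.

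The ligand Nodal (ENSMUSG00000037171.6, chr10:61417972-61425338) overlapped between each d clone and its parental line. Its total level was 62.3 and 44.3 CPM in the d3 parental replicates, 63.1 and 28.6 in clone 12, and 66.4 and 33.1 in clone 21. It was 86.7 and 55.0 CPM in the d6 parental replicates and 79.2 and 56.98 in clone 16. Against the parental library of the same number, Nodal was higher in replicate 1 of both d3 clones and replicate 2 of d6 clone 16. In the other pairs it was lower. The log2 change averaged over the d recombinations was -0.11 (SE 0.242), with a 95% interval of -0.58 to 0.37, and it ran from -0.28 to 0.09 when 1 library was left out. Nodal is also a target of its own signal, and the i clones gave 45.4 and 43.4 CPM in i7 clone 7 and 71.5 and 74.7 in i7 clone 12, against 47.6 and 51.8 in their parental line. Levels were 64.1 and 50.5 CPM in i12 clone 10 (parental 59.0 and 32.9) and 53.0 and 46.0 in i10 clone 18 (parental 62.0 and 48.7). Among the i clones only i7 clone 12 had both replicates above both parental ones, and i7 clone 7 had both below. The number of all genes that lay outside their parental replicates in these clones was not counted.

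The antagonist Lefty2 was lower on average in d clones by less than its spread. Its level was 123 and 61.4 CPM in the d3 parental replicates, 102 and 35.7 in clone 12, and 72.2 and 31.9 in clone 21. It was 272 and 216 CPM in the d6 parental replicates and 234 and 196 in clone 16. In each of the 3 clones the ranges overlap with the parental line, and in same-numbered pairs Lefty2 was lower in the clone in 6 of 6. The limits given for the pairs of Tdgf1 hold here too. The log2 change averaged over the d recombinations was -0.40 (SE 0.344, 95% interval -1.08 to 0.27) and stayed between -0.64 and -0.12 when 1 library was left out. With the replicate block it was -0.43 (SE 0.166), with an unadjusted p of 0.0188 and an adjusted p of 0.513 (quasi-likelihood test of edgeR, adjusted after Benjamini-Hochberg). The i clones averaged a log2 change of 0.02 (SE 0.288) for Lefty2. The difference between the d and i averages was -0.42 (SE 0.449, 95% interval -1.30 to 0.46).

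Lefty1 was measured on far fewer counts than Lefty2 and was correspondingly less certain. It stood at 5.87 and 1.75 CPM in the d3 parental replicates, 5.49 and 1.44 in clone 12, and 2.87 and 1.45 in clone 21. It stood at 13.2 and 8.35 CPM in the d6 parental replicates and 13.9 and 6.61 in clone 16. All 3 comparisons overlap. In same-numbered pairs Lefty1 was higher in d6 clone 16 replicate 1 and lower in the clone in the other pairs. The log2 change averaged over the d recombinations was -0.28 (SE 0.454, 95% interval -1.17 to 0.61), with the opposite sign (0.29) without d3 parental replicate 1. The average over the i recombinations was 0.06.

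Smad7 (ENSMUSG00000025880.11, chr18:75367529-75395935), which blocks receptor access of Smad2 and Smad3, was 47.3 and 35.0 CPM in the d3 parental replicates. It was 42.2 and 26.1 in clone 12 and 45.1 and 34.8 in clone 21. In d6 it was 58.0 and 51.4 CPM in the parental replicates and 48.9 and 44.3 in clone 16, where the groups do not overlap. How many of all genes did not overlap in this comparison was not counted. In same-numbered pairs Smad7 was lower in the clone in 6 of 6, with the limits given for the pairs of Tdgf1. The averaged log2 change in d recombinations was -0.19 (SE 0.175, 95% interval -0.54 to 0.15).

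The receptors had low levels of allele-assigned counts. Acvr1b (ENSMUSG00000000532.11, chr15:101174067-101213684), the type I receptor ALK4, ranged from 4.34 to 10.6 CPM over all libraries. Acvr2b (ENSMUSG00000061393.14, chr9:119402118-119434995), a type II receptor, ranged from 2.62 to 9.36 CPM. Their averaged log2 changes in d recombinations were 0.13 (SE 0.217) and 0.11 (SE 0.195). Without overlap with the parental replicates, Acvr2b was higher in both d3 clones and lower in i12 clone 10 and i10 clone 18. Acvr1b was higher without overlap in i10 clone 18. How many of all genes did not overlap in these comparisons was not counted, so these are not read as results about the receptors. Acvr2b averaged a log2 change of -0.40 (SE 0.178) in i recombinations, with an unadjusted p of 0.0372 that did not pass adjustment. Acvr2b lies on chromosome 9 like Tdgf1, but its CAST share in d clones was 58.7%, 61.0% and 55.2%, against 56.1% and 50.3% in the d3 and d6 parental lines.

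Foxh1 and Cfc1 were at or near the floor of 3 counts, which corresponds to 0.198 to 0.907 CPM depending on the library. Foxh1, the DNA-binding partner of Smad2 and Smad3, had 6 counts in all and 0 in 20 libraries. Cfc1, the other EGF-CFC co-receptor, had 30 counts in all and 0 in 11 libraries, with at most 7 counts, in i10 clone 18 replicate 2. No change of these genes was detectable at this depth, and neither entered the tests. Few strain differences in a gene could also give few counts, which was not tested.

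**Figure D2:**
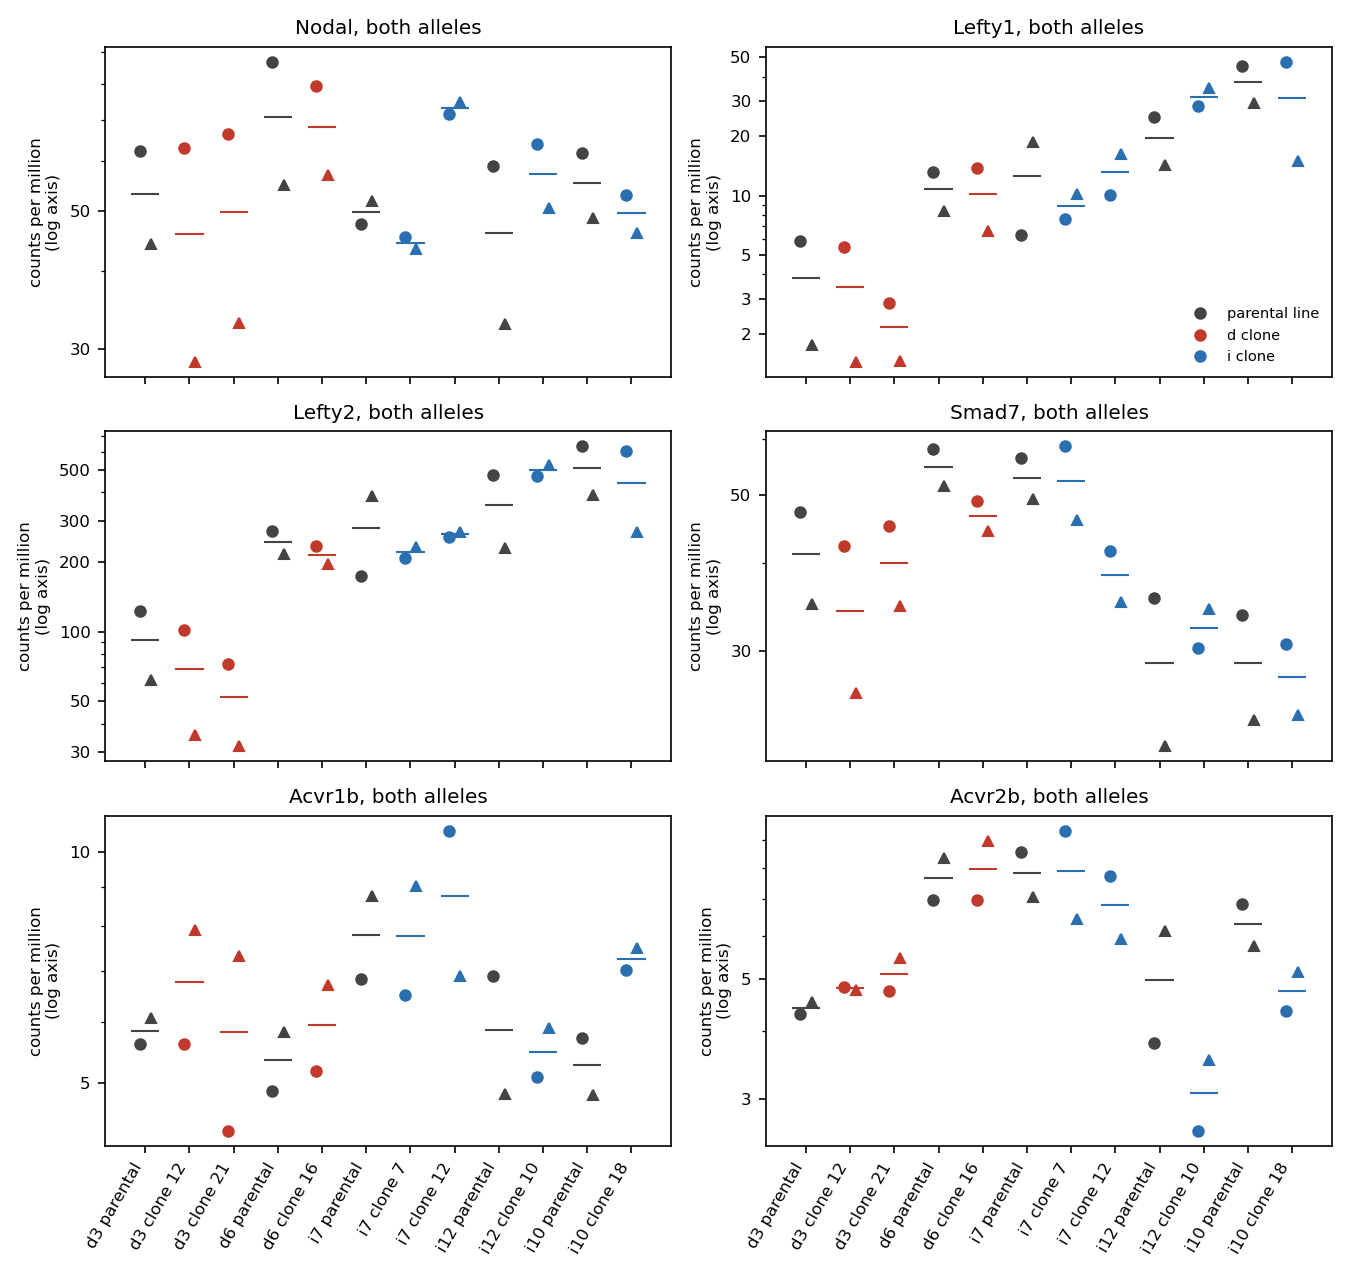
Total level in CPM of 6 members in each of the 12 groups (circles, replicate 1; triangles, replicate 2; bars, mean of 2; grey, parental; red, d clones; blue, i clones). Mean Lefty2 ran from 92.2 CPM (d3) to 511 (i10) over the parental lines, and mean Lefty1 from 3.81 to 37.4. These differences did not pass edgeR's joint test. Not all parental lines lay apart: d6 and i7 had 244 and 280 CPM of Lefty2. Its largest mean log2 change in a clone was -0.82 (d3 clone 21).

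Without the replicate block, none of the 6 tested members besides Tdgf1 passed an adjusted p of 0.05 by the same edgeR test in a clone or in the averages. The share of all 16253 tested genes that passed was 0.0123% in the mean of d recombinations, 0.0123% in d3 clone 12, 0.0554% in d3 clone 21 and 0.0123% in d6 clone 16. It was 0% in i7 clone 7, i12 clone 10, i10 clone 18 and the mean of i recombinations, 0.0246% in i7 clone 12, and 0.0123% in the difference of d against i. Beside these 0 counts, the unblocked fit gave 0 members with an unadjusted p under 0.05 in each comparison except the mean of i recombinations, where Acvr2b was the 1 such gene, and DESeq2 called 0 of them. Of all 16253 genes, 306 had such a p in the mean of d recombinations and 141 in the mean of i recombinations. With the block, Nodal passed in i7 clone 12, as described further on. Of the 6 members, 2 were above and 4 below 0 in the mean of d recombinations, with a median log2 change of -0.15, against 0.001 for all genes tested. The size a change needed can be read from simulated counts with the same library sizes, where changes of 2-fold were recovered for 67.5% of genes in the mean of d recombinations and 5.0% in d3 clone 12 at a coefficient of variation of 0.25, near that of the unblocked fit. At 0.12, near that of the blocked fit, they were recovered for 99.0% and 86.5%. The simulated counts had no replicate effect and 1 spread for all genes, and were fitted without a block. The blocked fit keeps 7 residual degrees of freedom against 12, so these shares do not give what it could recover. Changes of 4-fold were recovered for 100% and 94.0% at 0.25. The Tdgf1 totals in the d clones, whose decrease was below 2-fold, lie in the range where the unblocked test of a single clone allowed few calls.

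**Figure D3:**
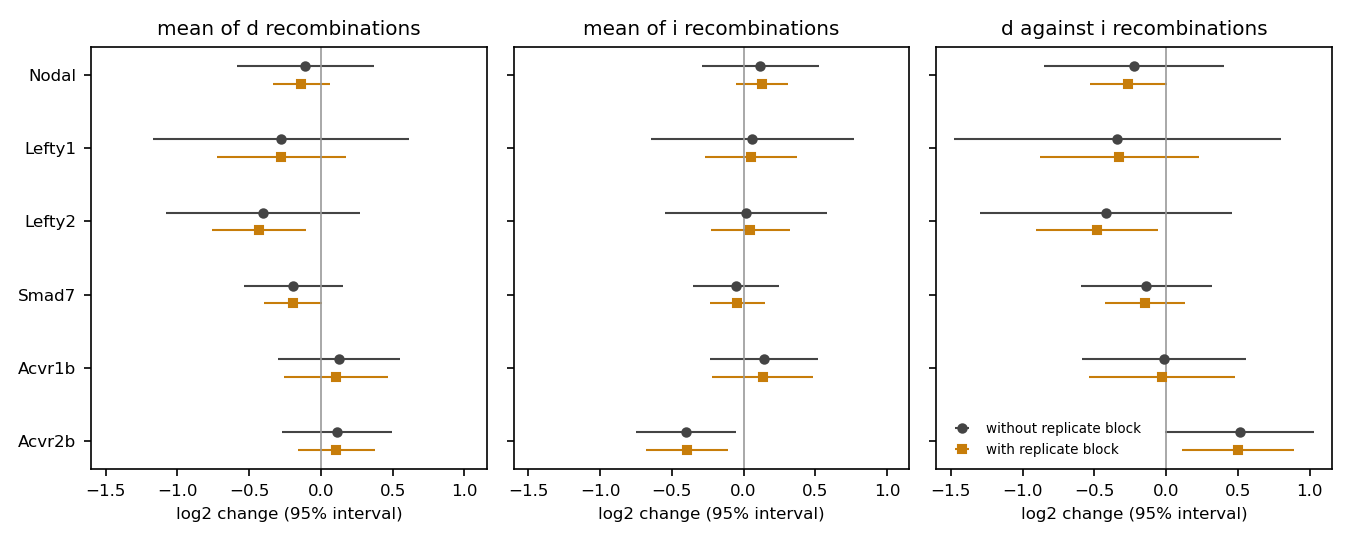
Log2 change of the total level of 6 members with 95% intervals, for the mean of d recombinations, the mean of i recombinations and their difference (circles without and squares with the replicate number as a block). Tdgf1 was chosen for its change in the d clones and is not drawn. Intervals of Nodal, Lefty1, Lefty2 and Smad7 without the block include 0 in the 3 panels.

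The allelic proportions of the other members did not pass a test of change. In the test of the 129S1 to CAST ratio, 0 of 6 members other than Tdgf1 were called in the d against i comparison, where 2.51% of 10795 genes were. An unadjusted p under 0.05 was found for 0 of the 6 there, and for 707 of the 10795 genes. By clone the same count was 0 in d3 clone 12 (0.0463% of all genes called), d3 clone 21 (3.41%), d6 clone 16 (0.0463%), i7 clone 7 (0.00926%), i7 clone 12 (2.33%), i12 clone 10 (0.00926%) and i10 clone 18 (0%), and a likelihood ratio test also gave 0 in each. An unadjusted p under 0.05 was found for 0 members in these clones except i12 clone 10, where Smad7 was the 1 such gene. By clone, 209 (i7 clone 7) to 697 (i7 clone 12) of the 10795 genes had such a p. The 129S1 share of Nodal was 51.2% ± 0.328 (SD, n = 2) in d3 parental cells, 53.0% ± 2.93 in clone 12 and 52.0% ± 0.107 in clone 21. Lefty2, like Tdgf1, was counted mainly from the 129S1 copy, with group means of 69.6% to 74.5%. Its share was 74.5% ± 3.18 in d3 parental cells, 72.6% ± 3.97 in clone 12 and 69.6% ± 2.81 in clone 21, and 71.3% ± 0.142 and 72.9% ± 1.88 in d6 parental cells and clone 16. Over Nodal, Lefty1, Lefty2, Smad7, Acvr1b and Acvr2b, the mean CAST share in a d clone ran from 27.1% (Lefty2 in d6 clone 16) to 67.1% (Acvr1b in d3 clone 12).

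The rest of the pathway was read from lists of ligands, receptors, processing enzymes, inhibitors, signal transducers and targets, 53 genes besides Tdgf1, of which 43 had enough counts to be tested. In the mean of d recombinations 0 of 43 were called and 0 had an unadjusted p under 0.05 without the block. Of all 16253 tested genes, 306 had such a p in this comparison, so few were to be found among 43 genes. Of the 43 genes, 24 were above and 19 below 0, with a median log2 change of 0.04. In the d against i comparison 0 were called, with 23 above and 20 below 0 and a median of 0.05. The 6 tested ligands, among them Nodal, Gdf3, Inhbb and Tgfb1, were all below 0 in the mean of d recombinations, with a median log2 change of -0.11. Of the 11 tested targets besides Tdgf1, 4 were above and 7 below 0, with a median of -0.11. The 7 tested signal transducers, among them Smad2, Smad3 and Smad4, had 6 above and 1 below 0 and a median of 0.14. The 10 inhibitors inside the cell, such as Smad7, Ski, Skil and Smurf1, had 4 above and 6 below 0 and a median of -0.03. DESeq2 also called 0 of these genes in the mean of d recombinations and in d against i. Without d3 parental replicate 1, some pathway genes, none of them a member, were called in d3 clones 12 and 21. That fit leaves 1 library in the d3 parental group, and the share of all genes it called is not given. These calls are therefore not read as a result about the pathway.

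In i7 clone 12, whose Tdgf1 total was 84.1% of the parental mean, 3 pathway genes (Nodal, T and Pcsk6) were called when the replicate number was a block and 0 without it. The level of T (brachyury, a mesendoderm transcription factor and Nodal target) was 9.20 and 8.31 CPM in the i7 parental replicates and 43.7 and 19.9 in clone 12. The log2 change was 1.86 (SE 0.408), with an adjusted p of 0.185 by edgeR's quasi-likelihood test without the block and 3.28e-04 with it. It was 1.19 without clone 12 replicate 1, the replicate with the higher level, and 2.32 without replicate 2. T was also high in the d3 parental line, at 47.8 and 37.0 CPM. Nodal rose in the blocked fit from the levels given above, with a log2 change of 0.56 (SE 0.154) and an adjusted edgeR p of 0.0416, against 0.960 without the block. Pcsk6, a protease that cleaves the Nodal precursor, was 94.5 and 110 CPM in the i7 parental replicates and 66.6 and 72.7 in clone 12. Its log2 change was -0.55, with an adjusted edgeR p of 0.0378 with the block and 0.670 without. The background matters here: 6.27% of all genes were called in this clone with the block, so 3 of 43 pathway genes is a share near that of genes at large.

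On the allelic ratio, 1 pathway gene was called in i7 clone 12. Drap1, a Foxh1-binding repressor that dampens Nodal signalling, had a 129S1 share of 53.0% ± 3.90 (SD, n = 2) in the i7 parental line and 36.8% ± 0.735 in clone 12. The log2 change of its ratio was -0.97 (SE 0.129), with an adjusted p of 7.97e-05 by edgeR's quasi-likelihood test, where 2.33% of all genes were called. Drap1 is on chromosome 19, whose 382 tested genes had a median change of -0.91 in this clone with 93.7% below 0, so Drap1 moved with its chromosome.

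The parental lines were also compared with each other. Across the 5 parental lines, 3 of 43 pathway genes were called, all 3 outside the 9 members, where 6.64% of all genes were called, a share near that of the pathway genes. An unadjusted p under 0.05 was found for 14 of the 43, and for 4272 of all 16253 genes. Smad3, a transducer of the Nodal signal, had parental means of 8.24 CPM in d3 and 10.1 in i7, against 39.6 in d6, 49.3 in i12 and 49.1 in i10 (adjusted p = 4.20e-04, edgeR joint test). Gsc (goosecoid), a Nodal target in the organizer, was low in the same lines, with 0.557 CPM in d3 and 0.264 in i7, against 2.51, 3.08 and 2.54 in d6, i12 and i10 (adjusted p = 0.0316, edgeR). The third gene was T, with 42.4 CPM in d3 and 5.48 to 15.1 in the other parental lines (adjusted p = 0.0022, edgeR). With the block 22 were called, but the block removes the between-culture spread on which a comparison of parental lines rests, and 50% of all genes were then called. The call of Gsc was lost without d3 replicate 2, i12 replicate 2 or either i7 replicate, with adjusted p up to 0.117.

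Lefty1 and Lefty2 had the same order of parental means, with differences that did not pass the joint test. Lefty2 parental means were 92.2 ± 43.5 CPM (SD, n = 2) in d3, 244 ± 38.9 in d6, 280 ± 151 in i7, 353 ± 174 in i12 and 511 ± 172 in i10. Lefty1 means were 3.81, 10.8, 12.5, 19.6 and 37.4 CPM. The replicates of neighbours in this order overlap, except d3 and d6 for both genes and i12 and i10 for Lefty1. Adjusted p was 0.0505 for Lefty1, 0.0649 for Lefty2 and 0.0661 for Smad7 by edgeR's joint test. Lefty1, Lefty2 and Smad7 were called by DESeq2 (adjusted p = 0.00165, 0.00362 and 0.0122). DESeq2 also called more of the other pathway genes here than edgeR did. Its share of all genes called is not given, so these calls cannot be set against genes at large. Smad7 did not follow the order of the antagonists, with means of 41.1, 54.7 and 52.9 CPM in d3, d6 and i7 and 28.8 in both i12 and i10. Nodal means were 53.3, 70.8, 49.7, 46.0 and 55.3 CPM in d3, d6, i7, i12 and i10. Tdgf1 total means in the same order were 1417, 1464, 2397, 1303 and 1755 CPM, so the parental line with the lowest Lefty2 (d3) and that with the highest (i10) both lay within the range of the others for Tdgf1.

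The allelic proportion of a pair of ligands also differed between parental lines, where 1.29% of all genes were called. The 129S1 share of Gdf3, a Nodal-related ligand, was 55.6% ± 0.488 (SD, n = 2) in d3, against 37.4% ± 2.39 in d6, 43.1% ± 0.773 in i7, 35.9% ± 1.30 in i12 and 42.6% ± 3.87 in i10 (adjusted p = 1.52e-05, edgeR). The 129S1 share of Nodal was 51.2% ± 0.328 in d3 and 50.1% ± 2.50 in i7, against 59.0% ± 1.23 in d6, 61.2% ± 1.08 in i12 and 61.6% ± 6.37 in i10 (adjusted p = 0.0480, edgeR). This joint test was added after the values were seen. The call of Nodal was lost in 9 of the 10 fits that left out 1 parental library, with adjusted p between 0.0185 and 0.128.

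In most lines the replicates differed for Tdgf1 in the opposite way from Nodal, Lefty1, Lefty2 and Smad7, but not from the 2 receptors. This pattern was seen in the values and not tested. Tdgf1 was higher in replicate 2 than in replicate 1 in 10 of 12 lines, with a median log2 difference of 0.67 and a range of -0.17 to 1.02. Nodal was lower in replicate 2 in 10 lines (median -0.41), Lefty2 in 8 (median -0.51), Lefty1 in 8 (median -0.71) and Smad7 in 11 (median -0.34). Nodal, Lefty1 and Lefty2 each differed in the direction opposite to Tdgf1 in 10 of 12 lines, Smad7 in 9, Acvr1b in 5 and Acvr2b in 3. Outside the pathway, Dnmt3b did so in 11 lines, Zfp42 in 8, Nanog and Otx2 in 7, Pou5f1 in 6, and Esrrb and Klf4 in 4. How many of all genes did so was not counted, so the pattern is not read as particular to the pathway. Lefty1 and Lefty2 differed in the same direction in all 12. In the 3 i7 lines Tdgf1 differed by -0.17, -0.12 and 0.08, and in the 9 other lines Nodal, Lefty1 and Lefty2 went the opposite way in 9, 8 and 8. In those 9 lines the size of the difference did not follow that of Tdgf1 for Nodal (Pearson r = 0.03) or Lefty2 (-0.07), and r was -0.33 for Lefty1. These r are a description: the values of a line share its libraries and their scaling, and same-numbered lines of a recombination deviate together, so the lines are not separate observations. Outside the members, Dnmt3b, a DNA methyltransferase gene, was lower in replicate 2 in 11 of 12 lines (median -0.95) and the mesendoderm gene Eomes in 11 (median -1.43), whereas Gsc was higher in 10. Replicate differences of Lefty2, such as 123 against 61.4 CPM in the d3 parental line, were as large as or larger than the differences between d clones and their parental lines.

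**Figure D4:**
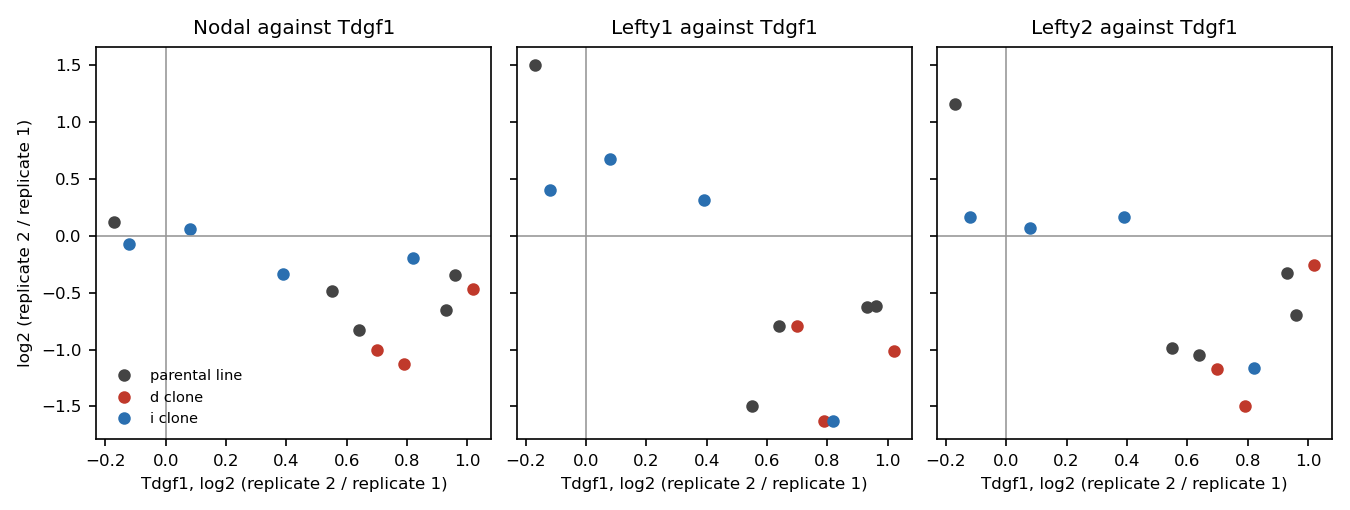
Replicate 2 minus replicate 1 (log2 CPM) in each of the 12 lines, for Nodal, Lefty1 and Lefty2 on the y axis against Tdgf1 on the x axis. Tdgf1 is above 0 in 10 of 12 lines, and in 10 lines each Nodal, Lefty1 and Lefty2 lie on the other side of 0 from Tdgf1. The number of all genes that do so was not counted.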

How the data were processed

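RNA from 24 libraries was measured in 12 groups of 2, grouped by the labels' recombination, clone and replicate. The deposited table holds whole-number counts per gene for the 129S1 and the CAST allele of each library; the authors' steps before it are known only as the names STAR, SAMtools and mm10, per the submitters' processing notes. The counter, the allele assignment, the treatment of reads fitting several genes and the use of strand are not given in the sources used here, so an overlapping or antisense gene cannot be told apart. Only reads over strain differences can be assigned, so a gene's level also depends on how many such sites it holds.

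Of 48985 identifiers, 48838 matched GENCODE M21 without the version, and 0.015% of counts lay in the rest. Total levels (129S1 plus CAST) were tested with edgeR 4.0.16 in R 4.3.3 (quasi-likelihood test, TMM scaling, filterByExpr, 16253 genes, all 24 libraries in 1 fit, Benjamini-Hochberg adjustment at 0.05). The allelic test compared the 129S1 and CAST counts of 10795 genes, each averaging 10 or more on either allele. Contrasts set each clone against its own parental line, averaged d and i recombinations with equal weight, and compared the 5 parental lines. CPM used the effective library size of both alleles together (summed counts of the tested genes times the TMM factor), with no pseudocount. The 95% intervals of log2 changes assume a normal distribution. Log2 changes of Tdgf1 by clone compare mean CPM after a constant under 1 CPM was added to each mean. The same constant was added before log2 for the replicate differences and the correlations with Tdgf1. It draws differences of genes at low levels, such as Lefty1 and Eomes, towards 0. Chromosome medians of the ratio had a constant added to the counts of each allele.

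Replicate numbers come from the labels and are shared within a recombination. Deviations from group means of same-numbered libraries correlated by 0.326 to 0.671 within a recombination (9 pairs) and by -0.196 to 0.586 between recombinations (57 pairs), so the numbers pair libraries of a recombination, and a fit with the replicate number within each recombination as a block was run as well. The scripts were tested on simulated data. Depth per library was 3286819 to 15581094 counts. Alternatives were the block, DESeq2 1.42.0, DESeq2 size factors, no filter on low counts, each allele alone, a likelihood ratio test, 50 counts per allele, and leaving out each library. Named are the 9 members, the pathway genes called in a comparison and the genes most alike to Tdgf1; others, such as the genes of the replicate differences, were chosen after their values were seen. The members and lists were chosen with earlier results of these data known. Sequences were read from the GENCODE M21 transcripts. A gene and a sequence are not reported here.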

Additional observations from a re-analysis of the deposited data

Results flagged for a closer look

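Bmp4 and its receptor gene Bmpr1a, of the related BMP branch, changed their allelic ratio differently in d and i recombinations. The log2 ratio of 129S1 to CAST counts differed by -1.69 (SE 0.244) for Bmp4, with an adjusted p of 7.95e-05, and by -2.26 (SE 0.157) for Bmpr1a, with an adjusted p of 2.95e-09, both by edgeR's quasi-likelihood test. The difference lay in d3 clone 21. There Bmp4 had 7 and 1 counts from the 129S1 allele, against 279 and 98 in the d3 parental line, beside 646 and 243 from CAST. Bmpr1a had 2 and 1 counts from the 129S1 allele, against 454 and 224, beside 686 and 732 from CAST. Both genes lie on chromosome 14, whose 382 tested genes had a median log2 ratio change of -6.52 in this clone, with 97.1% below 0. In d3 clone 12, with the same low CAST level of Tdgf1, 191 of these 382 genes were below 0.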

How the results depend on the processing

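The counts of called pathway genes that moved by over 1.5 times were these. Among parental lines (3 called), 5 were called with 129S1 counts alone, 10 with DESeq2, 9 with no filter and 22 with the replicate block. In i7 clone 12 (0 called), 1 was called with CAST counts alone, DESeq2 or no filter and 3 with the replicate block. Leaving out 1 library gave 0 to 4 in d3 clone 12 and 0 to 2 in d3 clone 21, and on the ratio 0 to 1, 0 to 2 and, among parental lines, 1 to 2. In other comparisons the block changed no call of a member. Changes near 0 turned sign, the cause was not tested: Acvr1b in d against i was 0.048 and 0.011 with 129S1 and CAST counts alone, in the mean of d -0.08 and of i -0.13 with 129S1 alone. Acvr2b in the mean of d was -0.015 with 129S1 alone, and Smad7 in the mean of i 0.091 with CAST alone. With 1 library left out, the ranges were -0.12 to 0.08 (Acvr1b, d against i), and for Lefty1 -0.67 to 0.22 (d against i), -1.43 to 1.00 (d3 clone 12), -1.43 to 0.29 (d3 clone 21), -0.71 to 0.36 (d6 clone 16), -0.60 to 0.29 (mean of d) and -0.29 to 0.41 (mean of i). For Lefty2 they were -1.37 to 0.15 (d3 clone 12) and -0.22 to 0.26 (mean of i), for Nodal -0.90 to 0.24, -0.66 to 0.34 and -0.36 to 0.31 (d3 clone 12, d3 clone 21, d6 clone 16) and -0.28 to 0.087 (mean of d), and for Smad7 -0.15 to 0.09 (mean of i). The Tdgf1 changes moved by less than the replicate spread in 21 rescaled values. They did so in 84 values without 1 library as well, but that outcome was fixed in advance. At replicate differences of this size, leaving out 1 of 2 replicates moves a mean by less than their spread. The 84 values therefore say nothing of how stable the changes are.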
